A study of Mus musculus with 20 samples.

Results

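The genes described here are those of 7 solute carrier families that carry amino acids, SLC1, SLC3, SLC6, SLC7, SLC36, SLC38 and SLC43. They were chosen by symbol alone among the protein coding genes of the annotation, which gave 61 of 55487 gene identifiers (21974 of them protein coding). The RNA came from mural granulosa cells (GCs) of 20 female mice, 5 each of ctrl estrus, FL1 estrus, ctrl diestrus and FL1 diestrus, where FL1 and ctrl name the line and estrus and diestrus the stage of the cycle. FL1 mice come from long selection for high fertility and ctrl mice from an unselected line of the same founders, so that many loci can differ between the lines and no transgene or deletion is involved. No group was treated. As the methods of the study state, mice were 77 ± 5 days old, the stage was read from vaginal smears, and GCs of 1 mouse were pooled from its 7 to 10 largest follicles after the oocyte complex had been removed, giving 1 library.

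Amino acid transporters bring building blocks for protein, nucleotide and glutathione synthesis into the cell, and several of them exchange one amino acid for another. Some members of SLC7 are light chains that reach the cell surface only when linked to a heavy chain of SLC3, and its cationic amino acid transporters work without one. SLC38 transporters take up small neutral amino acids such as glutamine with sodium. In the follicle, GCs also pass amino acids through gap junctions to the oocyte, which takes up some of them poorly by itself.

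GCs of FL1 mice expressed Slc7a8, the light chain LAT2 for large neutral amino acids, and Slc6a6, the taurine transporter, more strongly than GCs of ctrl mice when both stages were fitted at once, and Slc1a5, the glutamine exchanger ASCT2, more weakly. In the same test 3 of 34 members passed an edgeR adjusted p of 0.05 or less, where 1.21% of all genes tested did. Within a single stage, edgeR called Slc7a8 in diestrus and no other member. Between the stages, and in the test of whether the difference between the lines depended on the stage, edgeR called 0 members. DESeq2, run as an alternative, also called Slc3a2 over both stages, Slc7a8 and Slc6a6 in estrus and several members between the stages, given below with their shares.

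All 10 granulosa cell markers checked, among them Fshr, Cyp19a1 and Foxl2, were detected in every group, with summed levels of 10994 to 14225 CPM in ctrl and 7112 to 14532 CPM in FL1 mice in estrus and 14686 to 20792 CPM and 12718 to 21375 CPM in diestrus. Levels are given in CPM, the counts of a gene brought to 1 common library size by TMM scaling over all 20 libraries, which held 5446576 to 8257041 reads counted on genes. The libraries were read from the 3′ end of transcripts, about 1 read per transcript, so that CPM was compared between genes without division by length. The libraries of FL1 replicate 4 in estrus and FL1 replicate 1 in diestrus had the lowest correlations of their log2 CPM with the mean of the other libraries of their group, 0.858 and 0.857, against 0.862 in ctrl replicate 1 in diestrus and 0.876 to 0.920 in the other 17. The former held the lowest value of its group in 7 and the latter in 6 of the 10 members given per mouse, and ctrl replicate 1 in diestrus in 4. Ctrl replicate 5 in estrus, with a correlation of 0.876, held it in 5 and had the lowest sum of all members, 1872 CPM. Calls that change when the first pair or all 3 libraries of lowest correlation are left out are given both ways. In such bulk samples, fewer cells of one type and less RNA per cell cannot be told apart.

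Markers of other cells also moved with the line. The 4 luteal markers (Akr1c18, Ptgfr, Lhcgr and Star) were higher in FL1 mice in both stages, with Star, Akr1c18 and Ptgfr called over both stages. They summed to 144 to 553 CPM in ctrl and 1587 to 4834 CPM in FL1 mice in estrus and to 201 to 462 CPM and 434 to 1841 CPM in diestrus. The paper reports Star and Lhcgr as genes of GCs, and luteal cells and GCs that express these markers cannot be told apart here. The 8 macrophage and leukocyte markers were all higher in FL1 mice over both stages (Lyz2 called), with sums of 16.8 to 44.3 CPM and 37.8 to 107.4 CPM in ctrl and FL1 mice in estrus and 7.67 to 20.3 CPM and 10.4 to 82.9 CPM in diestrus. The 4 erythroid and 6 endothelial markers tested were also higher in FL1 mice over both stages, with 0 called. No luteal or leukocyte marker was at 0 in a whole group. At an unadjusted p under 0.05 over both stages there were 4 erythroid and 1 endothelial marker (11.0% of all genes). Of the 8 oocyte markers 6 were higher and 2 lower in FL1 mice over both stages, with 0 called. Their sums were 127 to 574 CPM in ctrl and 200 to 574 CPM in FL1 mice in estrus, and 57.9 to 576 CPM and 90.3 to 633 CPM in diestrus. Of the 4 smooth muscle markers 2 were higher and 2 lower, and of the 10 granulosa markers 4 and 6, with 0 called. The part of all these cells in the differences between the lines was not tested.

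Markers moved with the stage too. In ctrl mice the granulosa cell marker Fshr (log2 fold change 1.71 ± 0.23, edgeR adjusted p = 0.00155) and the theca cell marker Cyp17a1 (3.16 ± 0.54, edgeR adjusted p = 0.00690) were called higher in diestrus, and in FL1 mice edgeR called 0 granulosa or theca markers. Of the 10 granulosa markers 7 were higher and 3 lower in diestrus in ctrl mice, and 9 and 1 in FL1 mice. Amh had the lowest log2 fold change in each line, -2.94 in ctrl and -1.29 in FL1 mice. An unadjusted p under 0.05 was reached by 5 of 10 granulosa markers in each line. It was reached by 2 of 3 theca markers tested in ctrl and by 2 of 5 in FL1 mice, against 11.8% and 9.48% of all genes. The 6 theca markers summed to 82.0 to 152 CPM in estrus and 90.6 to 328 CPM in diestrus in ctrl mice, and to 90.4 to 114.5 CPM and 64.2 to 193 CPM in FL1 mice. The 4 luteal markers were all lower in diestrus in FL1 mice, and 2 were higher and 2 lower in ctrl mice. Of them 2 in each line had an unadjusted p under 0.05, edgeR called 0 and DESeq2 called Star in both lines. DESeq2 also called Fshr, Gja1, Inhba, Cyp17a1 and the leukocyte marker Adgre1 in ctrl mice and Cyp19a1 in FL1 mice (3.42% and 1.74% of all genes). The part of all these cells in the differences between the stages was not tested.

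Few of the transporters carried most of the signal. All 61 members had a row of counts, 8 of them were at 0 in every library, and 25 had a count in each of the 20. A count of 0 allows up to 3 counts, or 0.363 to 0.551 CPM by the depth of the library, for counting error only. A mean over 100 CPM was reached by 7 members and over 10 CPM by 23, while 10 lay between 1 and 10 CPM and 20 with some counts were under 1 CPM. The 8 highest together held 75.4% to 84.1% (median 81.0%) of the summed CPM of all members in a library. Counts were high enough for a test in at least 1 comparison in 34 members: 4 of 7 in SLC1, 1 of 2 in SLC3, 6 of 19 in SLC6, 9 of 15 in SLC7, 3 of 4 in SLC36, 9 of 11 in SLC38 and 2 of 3 in SLC43. The other 27 reached at most 57 counts in any library.

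**Figure D1:**
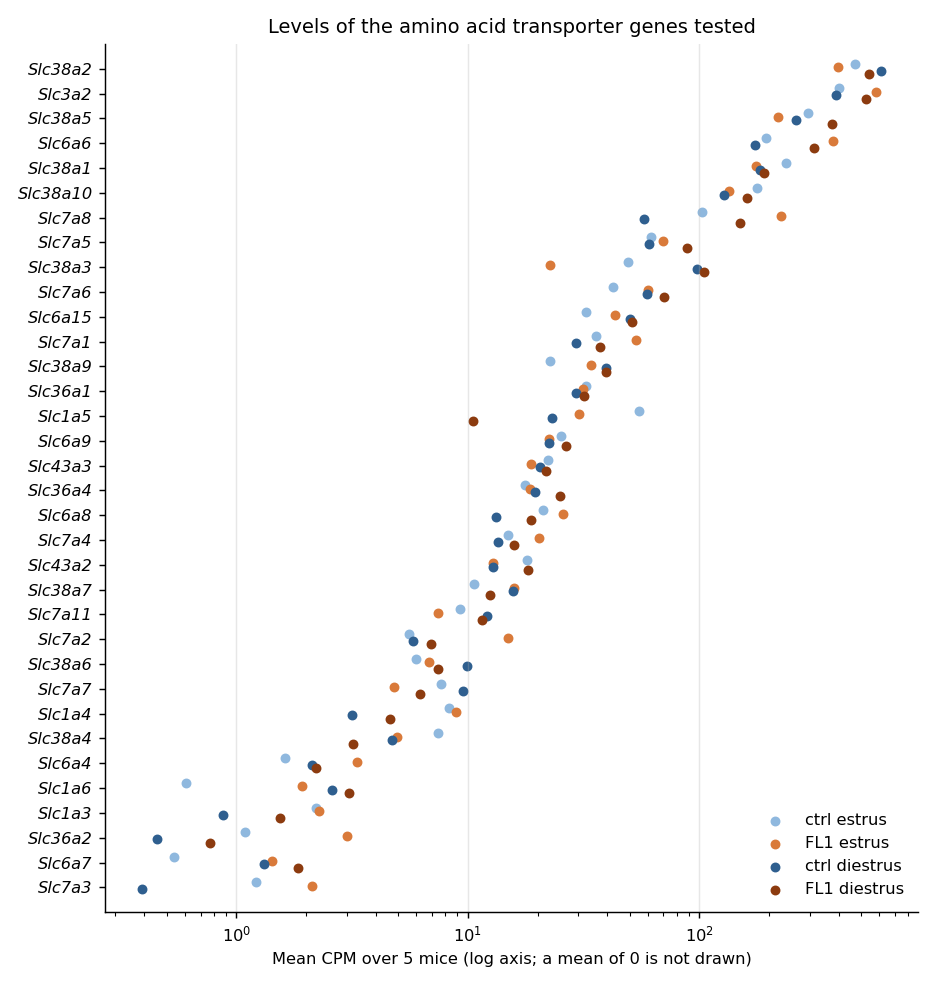
Mean CPM (log axis) of the 34 tested transporter genes, ordered by their mean over all 20 mice, with 1 point for each combination of line and stage (5 mice each; a mean of 0 is not drawn). The means run from 505 CPM over all mice for Slc38a2 to 0.930 CPM for Slc7a3, and the 4 points of Slc1a5 reach from 10.6 to 55.0 CPM.

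By mean over all mice the order was Slc38a2 (505 CPM), Slc3a2 (475 CPM), Slc38a5 (287 CPM), Slc6a6 (266 CPM), Slc38a1 (197 CPM), Slc38a10 (150.1 CPM), Slc7a8 (134 CPM), Slc7a5 (70.3 CPM), Slc38a3 (68.6 CPM) and Slc7a6 (57.9 CPM). Slc38a2 ranked 174 among the 14938 genes tested over all mice and Slc3a2 191. The SLC38 family summed to 1009 ± 240.3 CPM in FL1 mice in estrus, 1278 ± 209.6 CPM in ctrl mice in estrus, 1355 ± 206 CPM in ctrl mice in diestrus and 1434 ± 245 CPM in FL1 mice in diestrus (mean ± SD, n = 5).

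Transporters of large neutral amino acids are made of a light and a heavy chain. Slc7a8 (ENSMUSG00000022180, chr14:54722209-54781946, minus strand, GRCm38) was measured in ctrl mice in estrus at 44.6, 140.1, 142, 101.7 and 83.4 CPM and in FL1 mice in estrus at 232, 186, 229, 129.8 and 348 CPM. In diestrus its values were 51.0, 56.8, 52.6, 63.2 and 63.7 CPM in ctrl and 112.4, 154, 138, 198 and 149 CPM in FL1 mice. The lines overlapped in estrus through FL1 replicate 4 alone, whose value lay below those of 2 ctrl mice, and did not overlap in diestrus, where every FL1 mouse was above every ctrl mouse. The lines differed by a log2 fold change of 1.39 ± 0.20 (SE) in diestrus with an edgeR adjusted p of 0.00266, the only one of 30 members called in that comparison, where 0.248% of all genes were. In estrus the log2 fold change was 1.13 ± 0.30 with an edgeR adjusted p of 0.0909, which became 1.28 with 0.0435 when FL1 replicate 4 was left out. Over both stages the log2 fold change was 1.26 ± 0.18 with an edgeR adjusted p of 0.000144.

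Slc3a2 (CD98, ENSMUSG00000010095, chr19:8706882-8723369, minus strand), the heavy chain that Slc7a8 and 5 other light chains share, had values in estrus of 311, 447, 496, 453 and 302 CPM in ctrl and 505, 493, 644, 632 and 639 CPM in FL1 mice. In diestrus 465, 425, 312, 359 and 388 CPM were found in ctrl and 428, 538, 533, 644 and 477 CPM in FL1 mice. The lines overlapped narrowly, by 1 mouse of each line in each stage. The log2 fold change was 0.53 ± 0.19 in estrus and 0.43 ± 0.19 in diestrus, and over both stages it was 0.48 ± 0.13 with an edgeR adjusted p of 0.0579, just outside the threshold. It passed when either ctrl replicate 1 or FL1 replicate 1 in diestrus was left out (edgeR adjusted p of 0.0452 and 0.0362), when all 3 libraries of low correlation were left out (0.0393) and with DESeq2 (adjusted p of 0.00305).

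**Figure D2:**
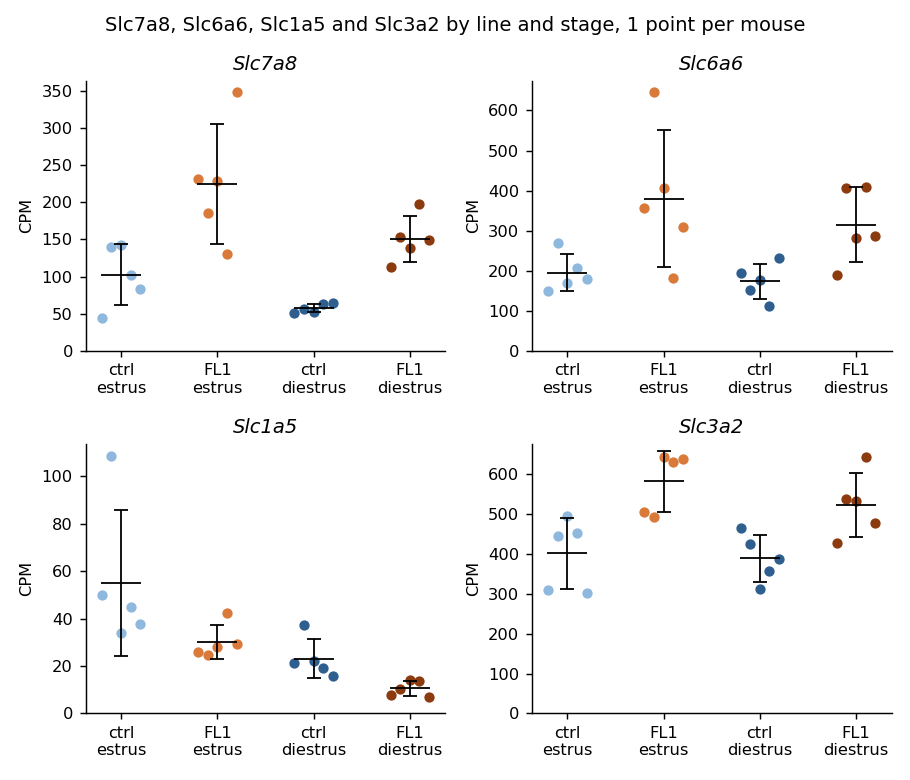
CPM of Slc7a8, Slc6a6, Slc1a5 and Slc3a2 in each mouse (points), with the mean (long line) and SD (whiskers) of the 5 mice of each line and stage, on axes that start at 0. FL1 mice lie higher for Slc7a8, Slc6a6 and Slc3a2 and lower for Slc1a5, and the lines do not overlap for Slc7a8 and Slc1a5 in diestrus.

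The starts of both genes and of the light chain gene Slc7a11 are shown because the chains work together and because stress signalling through the factor ATF4 is known to act on such genes. ATF4 binds composite elements of the letters TGATGNAA with a C/EBP partner, and this motif was searched on both strands in the 250 bases before the start of transcription given by RefSeq (GRCm38.p6). Each sequence is written 5′ to 3′ on the strand of its gene and ends 1 base before the start, with matches in capitals.
Slc7a8 (chr14:54781887-54782136, minus strand): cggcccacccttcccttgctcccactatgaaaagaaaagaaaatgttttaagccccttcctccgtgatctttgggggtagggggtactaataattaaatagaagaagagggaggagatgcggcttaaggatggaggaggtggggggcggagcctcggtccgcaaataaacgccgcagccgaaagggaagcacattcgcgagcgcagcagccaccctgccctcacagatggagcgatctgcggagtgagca
Slc3a2 (chr19:8713898-8714147, minus strand): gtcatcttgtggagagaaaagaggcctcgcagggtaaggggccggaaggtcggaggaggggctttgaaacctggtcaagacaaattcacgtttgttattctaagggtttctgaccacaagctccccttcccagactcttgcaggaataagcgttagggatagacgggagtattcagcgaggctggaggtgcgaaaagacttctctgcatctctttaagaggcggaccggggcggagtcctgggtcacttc
Slc7a11 (chr3:50443614-50443863, minus strand): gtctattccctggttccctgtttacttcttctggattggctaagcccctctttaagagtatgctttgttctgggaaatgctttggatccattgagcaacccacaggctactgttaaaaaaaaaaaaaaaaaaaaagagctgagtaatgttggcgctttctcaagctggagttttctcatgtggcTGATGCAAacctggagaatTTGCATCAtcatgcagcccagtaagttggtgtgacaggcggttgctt
The window of Slc7a11 holds 2 matches on opposite strands, 66 and 47 bases before the start, and those of Slc7a8 and Slc3a2 hold none. The start used for Slc3a2 lies inside the span of the gene given above, and the bases before the outer end of that span were not searched. Among 32 windows of 21 tested members the motif was found in 3 windows of 2 genes (Slc7a11 and Slc7a7), and among all 32851 windows of this length in 3.45%. Both further motifs, searched after the data had been seen, were the cAMP response element TGACGTCA, found in 1.55% of all windows and in the window of 1 member (Slc38a6), and the NR5A site CAAGGTCA, in 1.33% and in none. A match describes the letters only.

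Slc7a5 (LAT1), the light chain for leucine and other large neutral amino acids in growing cells, was measured in estrus at 56.8, 83.7, 45.5, 55.4 and 68.0 CPM in ctrl and 56.2, 78.2, 83.4, 12.2 and 119.6 CPM in FL1 mice. In diestrus it was at 32.8, 75.6, 46.0, 54.2 and 94.1 CPM and 79.8, 138, 38.2, 80.3 and 107.8 CPM. The lines overlapped widely in both stages, and the lowest value belonged to FL1 replicate 4 in estrus. Its log2 fold change was 0.17 ± 0.38 in estrus and 0.56 ± 0.33 in diestrus, both outside the threshold. Slc7a6 (y+LAT2), which exchanges cationic for neutral amino acids, had means of 42.4 ± 6.09 CPM in ctrl and 60.0 ± 20.4 CPM in FL1 mice in estrus and of 59.2 ± 17.4 CPM and 70.1 ± 15.5 CPM in diestrus. Slc7a11, the cystine and glutamate exchanger, and Slc7a7, which lies near Slc7a8 on chromosome 14, stayed low, at means of 7.42 to 12.1 CPM and 4.77 to 9.56 CPM. Unlike that of Slc7a8, the log2 fold change of Slc7a7 over both stages was below 0 (-0.65 ± 0.52), without passing the test.

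The make-up of the light chains followed these values. Slc7a8 accounted for 44.1 ± 8.76% of the summed CPM of the 6 light chains that link to Slc3a2 in ctrl mice and 62.5 ± 8.24% in FL1 mice in estrus. In diestrus its share was 30.2 ± 6.55% in ctrl and 46.1 ± 6.02% in FL1 mice, with Slc7a5 and Slc7a6 making up most of the rest. The lines met without overlap in estrus, with the highest ctrl mouse at 54.7% and the lowest FL1 mouse at 55.0%, and overlapped in diestrus, at 40.9% and 39.3%. Per transcript of Slc3a2 there were 0.249 ± 0.0673 of Slc7a8 in ctrl and 0.388 ± 0.127 in FL1 mice in estrus, and 0.15 ± 0.0280 and 0.285 ± 0.0244 in diestrus. In diestrus this ratio ranged from 0.110 to 0.176 in ctrl and from 0.259 to 0.311 in FL1 mice without overlap. These shares rest on the same counts as the tests above and were not tested themselves.

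**Figure D3:**
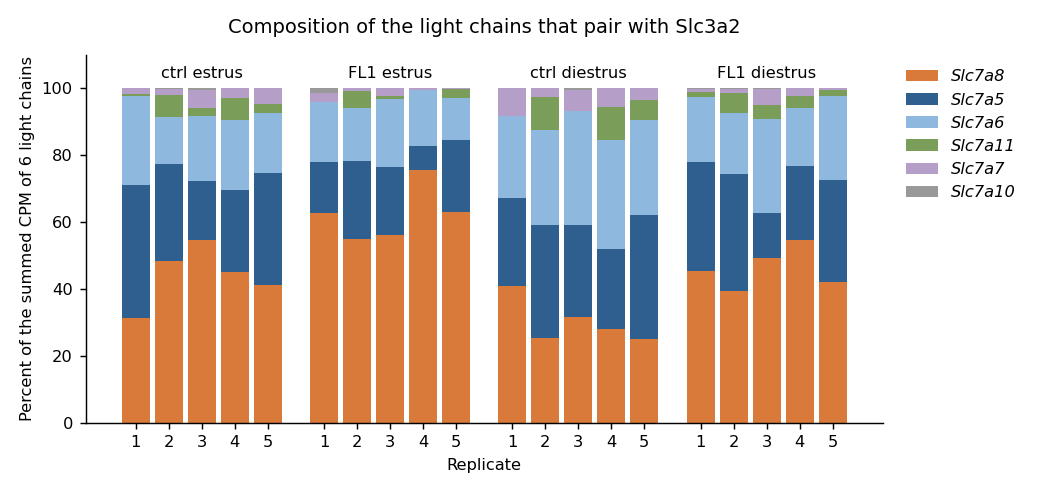
Percent of the summed CPM of 6 light chain genes taken by each of them, with 1 bar per mouse and the replicate number under it. Slc7a8 takes the largest share in every FL1 mouse, on average 62.5% in estrus and 46.1% in diestrus, against 44.1% and 30.2% in ctrl mice.

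Cationic amino acids enter through SLC7 members without a heavy chain. Slc7a1 (CAT1), the widespread arginine and lysine transporter, had means of 35.7 ± 14.1 CPM in ctrl and 53.2 ± 16.6 CPM in FL1 mice in estrus, with a log2 fold change of 0.46 ± 0.21 over both stages (unadjusted p = 0.0391, edgeR adjusted p = 0.418). Slc7a2 (CAT2) did not overlap between the lines in estrus, at 1.04 to 10.2 CPM in ctrl and 11.3 to 23.2 CPM in FL1 mice, and was not called (edgeR adjusted p = 0.377). Some of its transcripts end in repeats that many other genes share, and its counts are uncertain. Slc7a4 had group means of 13.6 to 20.3 CPM, and Slc7a3 was at 0 in all FL1 mice in diestrus and reached at most 4.39 CPM elsewhere.

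The sodium and chloride coupled SLC6 family was led by Slc6a6 (ENSMUSG00000030096, chr6:91684053-91759066, plus strand), which takes up taurine, an osmolyte and antioxidant of reproductive tissue. Its values in estrus were 149, 268, 169, 207 and 179 CPM in ctrl and 355, 647, 406, 181 and 310.2 CPM in FL1 mice. In diestrus they were 194, 152, 176, 112.8 and 231 CPM in ctrl and 189, 408, 282, 408 and 286 CPM in FL1 mice. Except for FL1 replicate 4 in estrus and FL1 replicate 1 in diestrus, all FL1 mice were above all ctrl mice of their stage. The log2 fold change was 0.96 ± 0.27 in estrus (edgeR adjusted p = 0.116) and 0.87 ± 0.25 in diestrus (edgeR adjusted p = 0.355), and over both stages it was 0.91 ± 0.19 with an edgeR adjusted p of 0.00792. Without FL1 replicate 4, the value in estrus was 1.14 with an edgeR adjusted p of 0.0240. A same-strand gene model, Gm45828, lies within Slc6a6 and held 0 to 88 counts per library.

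All 6 SLC6 members tested over both stages had log2 fold changes above 0, with a median of 0.46 where the median of all genes was 0.01, and Slc6a6 alone passed the test. Slc6a15 (B0AT2), a carrier of branched-chain amino acids and proline, had group means of 32.3 to 51.4 CPM. Slc6a9, which takes up glycine, had group means of 22.4 to 26.7 CPM, and the creatine transporter Slc6a8 of 13.2 to 25.7 CPM. The other SLC6 members, many of them neurotransmitter transporters, had means of at most 2.32 CPM over all mice, the highest being that of the serotonin transporter Slc6a4.

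Slc1a5 (ENSMUSG00000001918, chr7:16781340-16798274, plus strand), which exchanges glutamine for other small neutral amino acids, was measured in estrus at 49.8, 108.7, 33.9, 44.9 and 37.9 CPM in ctrl and 25.9, 24.8, 28.2, 42.5 and 29.3 CPM in FL1 mice. In diestrus it stood at 21.2, 37.3, 22.3, 19.1 and 15.8 CPM in ctrl and 7.95, 10.3, 13.9, 13.8 and 6.82 CPM in FL1 mice. The lines overlapped in estrus and not in diestrus, and in FL1 mice the stages did not overlap, with diestrus lower. The log2 fold change between the lines was -0.87 ± 0.32 in estrus (edgeR adjusted p = 0.274) and -1.12 ± 0.38 in diestrus (edgeR adjusted p = 0.578), and -0.997 ± 0.23 over both stages (edgeR adjusted p = 0.0244). This last call was held in 16 of 20 fits with 1 mouse left out. It was lost without ctrl replicate 2 in estrus (log2 fold change -0.81, edgeR adjusted p = 0.102), whose 108.7 CPM was far above the others of its group, and by a narrow margin without ctrl replicate 2 in diestrus, FL1 replicate 1 or FL1 replicate 2 in estrus (edgeR adjusted p of 0.0528, 0.0503 and 0.0508). The related Slc1a4 (ASCT1) had group means of 3.17 to 8.86 CPM, and the glutamate carriers Slc1a1, Slc1a2, Slc1a3 and Slc1a6 had means over all mice of 0.0234 to 2.05 CPM.

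**Figure D4:**
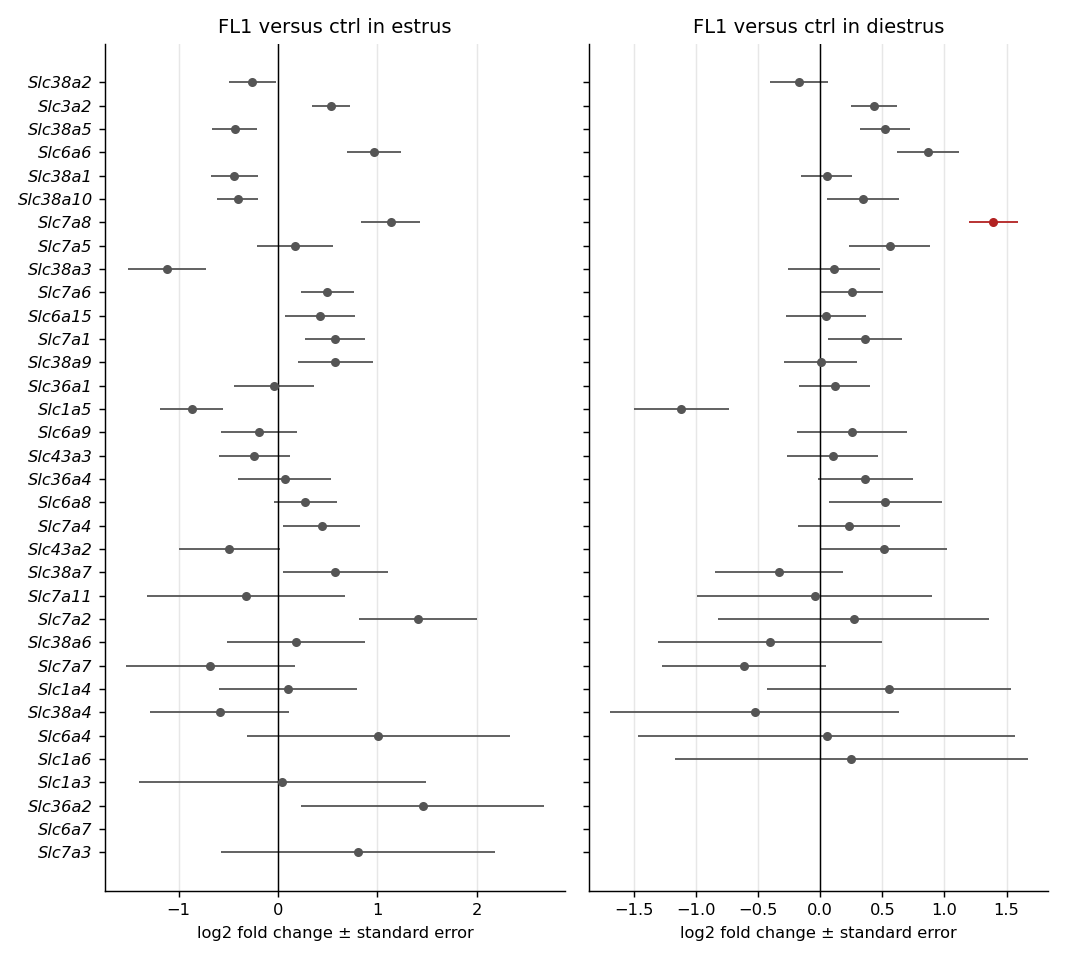
Log2 fold change of FL1 against ctrl mice (points) with its standard error (lines) for each tested transporter gene, in estrus (left) and diestrus (right), ordered by mean CPM. Slc7a8 in diestrus (red) is the only gene with an edgeR adjusted p of 0.05 or less, and genes without a point did not pass the filter of that stage.

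Taking all members tested together, 19 of 32 had a log2 fold change above 0 in estrus (median 0.14) and 23 of 30 in diestrus (median 0.24), with a median of 0.01 over all genes in each stage. In estrus edgeR called 0 members, where 0.769% of all genes were called, 6 members had an unadjusted p under 0.05 (10.7% of all genes), and DESeq2 called 2, Slc7a8 and Slc6a6 (2.70% of all genes). In diestrus 5 of 30 members had an unadjusted p under 0.05, against 5.56% of all genes, and DESeq2 called 1, Slc7a8 (0.722% of all genes). The groups of mice did not overlap for 2 members in estrus (Slc7a2 and Slc36a2) and 3 in diestrus (Slc7a8, Slc1a5 and Slc38a5), and for 3.56% and 1.58% of all genes.

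The SLC38 family, the sodium-coupled neutral amino acid transporters, held 5 of the 9 members with the highest means. Slc38a2 (SNAT2), which rises when amino acids are short, was measured in estrus at 608, 519.6, 459, 449 and 324 CPM in ctrl and 289.8, 410.4, 349.7, 289 and 641 CPM in FL1 mice. In diestrus it was at 712, 470.3, 469.5, 733 and 679 CPM and 300.1, 669.7, 511, 648 and 576 CPM. The lines overlapped in both stages, and no test of Slc38a2 passed, with log2 fold changes of -0.26 ± 0.23 in estrus and -0.17 ± 0.23 in diestrus.

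Slc38a1 (SNAT1), a glutamine transporter of the cell surface, had values in estrus of 189, 371, 175, 251 and 201 CPM in ctrl and 172, 191, 179.9, 112.8 and 223 CPM in FL1 mice. In diestrus the values were 211, 175, 146, 195 and 193 CPM and 136, 216, 237, 213 and 146 CPM. Slc38a1 did not pass any test, and its groups overlapped throughout. Slc38a10, a member found inside cells, was at 204, 188, 179, 209.8 and 106.8 CPM in ctrl and 128, 129.6, 128, 119 and 166 CPM in FL1 mice in estrus. Its values in diestrus were 100.4, 95.6, 175, 73.8 and 192 CPM and 91.5, 159, 234, 164 and 158 CPM. These groups overlapped as well, and the log2 fold change between the lines was -0.41 ± 0.20 in estrus and 0.34 ± 0.29 in diestrus.

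Slc38a5 (SNAT5, ENSMUSG00000031170, chrX:8271133-8280179, plus strand), which carries glutamine, asparagine, serine and glycine, had values in estrus of 372, 255, 335, 267 and 243 CPM in ctrl and 232, 117.9, 201, 230.4 and 309 CPM in FL1 mice. In diestrus ctrl mice had 150.2, 269, 261, 304 and 324 CPM and FL1 mice 396, 392, 374, 344 and 362 CPM. FL1 mice in diestrus lay above both ctrl mice in diestrus and FL1 mice in estrus without overlap, and their SD of 21.5 CPM was the smallest of the 4 groups. The difference between the lines was -0.44 ± 0.23 on the log2 scale in estrus and 0.52 ± 0.20 in diestrus (edgeR adjusted p of 0.525 and 0.755). The interaction, which tests whether both differ, was 0.95 ± 0.31 on the log2 scale with the lowest unadjusted p of all members (0.00516) and an edgeR adjusted p of 0.933.

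Slc38a3 (SNAT3, ENSMUSG00000010064, chr9:107650634-107669530, minus strand), a glutamine transporter known from cumulus cells around the oocyte, was at 56.5, 69.3, 52.3, 37.1 and 30.3 CPM in ctrl and 35.6, 22.6, 26.7, 4.91 and 23.4 CPM in FL1 mice in estrus. Its values in diestrus were 52.6, 100.1, 69.8, 122 and 144 CPM in ctrl and 77.6, 225, 50.9, 58.1 and 112.4 CPM in FL1 mice. FL1 mice in diestrus were all above FL1 mice in estrus, while the stages overlapped in ctrl mice and the lines in both stages. In FL1 mice diestrus exceeded estrus by a log2 fold change of 2.20 ± 0.46 (edgeR adjusted p = 0.0527) and by 0.98 ± 0.29 in ctrl mice (edgeR adjusted p = 0.123). The value in FL1 mice passed without FL1 replicate 4 in estrus (1.94, edgeR adjusted p = 0.0430), without FL1 replicate 1 in diestrus (2.29, edgeR adjusted p = 0.0223) and without both (2.03, edgeR adjusted p = 0.0156), and DESeq2 called it in FL1 and ctrl mice (adjusted p of 0.000657 and 0.0478). Of the further cumulus markers, Has2, Ptx3 and Tnfaip6 summed to 0.702 to 8.26 CPM in FL1 mice in estrus and 0 to 4.60 CPM in diestrus. In ctrl mice they summed to 0 to 10.4 CPM and 0.401 to 3.73 CPM. Amh, also counted among the granulosa markers, went opposite to Slc38a3 between the stages, with log2 fold changes of -2.94 in ctrl and -1.29 in FL1 mice.

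**Figure D5:**
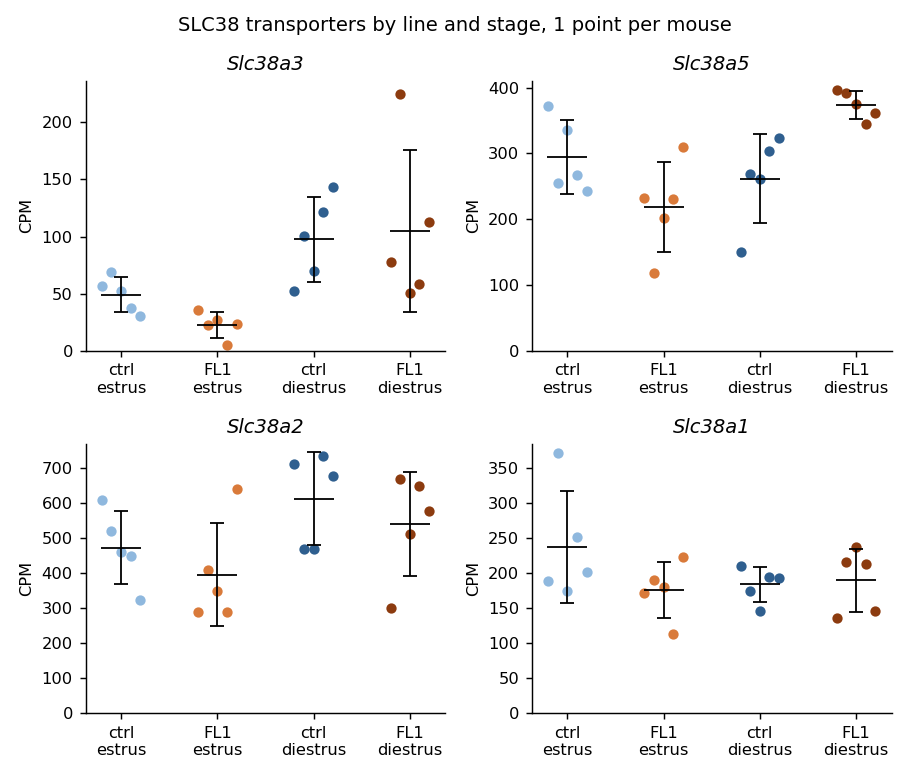
CPM of Slc38a3, Slc38a5, Slc38a2 and Slc38a1 in each mouse (points), with the mean (long line) and SD (whiskers) of the 5 mice of each line and stage, on axes that start at 0. In FL1 mice the stages do not overlap for Slc38a3 and Slc38a5, with means of 22.6 and 218 CPM in estrus and 104.8 and 374 CPM in diestrus.

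The other SLC38 members had lower levels. Slc38a9, a lysosomal transporter that reports arginine to the growth regulator mTORC1, had group means of 22.7 to 39.5 CPM and a log2 fold change of 0.79 ± 0.34 between the stages in ctrl mice (unadjusted p = 0.0354, edgeR adjusted p = 0.368). The lysosomal Slc38a7 had a mean of 13.7 CPM over all mice, Slc38a6 of 7.54 CPM, Slc38a4 of 5.05 CPM and Slc38a8 of 0.999 CPM. Slc36a1 and Slc36a4, proton-coupled carriers, had means of 31.1 and 20.2 CPM, and Slc43a3 and Slc43a2 of 20.8 and 15.5 CPM. No member of SLC36 or SLC43 was called in any comparison. Slc36a2, with means of 0.455 to 3.0 CPM, was the member other than Slc7a2 whose lines did not overlap in estrus.

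Between the stages edgeR called 0 of 30 members in ctrl mice, where 1.36% of all genes were called, and 0 of 32 in FL1 mice, where 0.221% were. An unadjusted p under 0.05 was reached by 4 members in each line (11.8% and 9.48% of all genes), and DESeq2 called 2 in ctrl mice (Slc1a5 and Slc38a3) and 4 in FL1 mice (Slc1a5, Slc38a3, Slc38a5 and Slc7a3), where it called 3.42% and 1.74% of all genes. Fshr and Cyp17a1 moved with the stage in ctrl mice, as given above. The log2 fold change of diestrus against estrus was -1.25 ± 0.35 for Slc1a5 in ctrl mice (edgeR adjusted p = 0.0981) and -1.52 ± 0.34 in FL1 mice (edgeR adjusted p = 0.0706). For Slc7a8 it was -0.84 ± 0.27 in ctrl mice (edgeR adjusted p = 0.155, and 0.0316 without ctrl replicate 1 in estrus) and -0.59 ± 0.24 in FL1 mice (edgeR adjusted p = 0.420). The median log2 fold change of the members was -0.14 in ctrl and 0.16 in FL1 mice, with 0.00 and 0.01 over all genes. The groups of mice did not overlap for 0 members in ctrl and 3 in FL1 mice (Slc1a5, Slc38a3 and Slc38a5), and for 3.66% and 2.42% of all genes.

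For the interaction of line and stage edgeR called 0 of 34 members and 0% of all genes, and DESeq2 called 0 members and 0.00383% of all genes. An unadjusted p under 0.05 was found for 4 members, Slc38a5, Slc38a3, Slc7a3 and Slc38a10, and for 4.75% of all genes. That Slc7a8 passed the test between the lines in diestrus and not in estrus does not show a difference between the stages, and its interaction was 0.25 ± 0.37 on the log2 scale (unadjusted p = 0.499). Over both stages 5 of 34 members had an unadjusted p under 0.05 (11.0% of all genes), 23 had a log2 fold change above 0, and their median was 0.22. DESeq2 called 4 over both stages, Slc7a8, Slc6a6, Slc1a5 and Slc3a2 (2.68% of all genes).

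Genes that work with the transporters were examined by list. Of the 9 transporters known as ATF4 targets, edgeR called Slc1a5 alone over both stages, in the downward direction, and DESeq2 also Slc3a2, upward (1.21% and 2.68% of all genes). Of these transporters 5 of 9 were above 0, with a median of 0.03. Among the 21 other ATF4 targets tested over both stages edgeR called 0 and DESeq2 0, and 4 had an unadjusted p under 0.05 (11.0% of all genes). Psat1, an enzyme of serine synthesis, was lower in diestrus than in estrus in ctrl mice, at 78.8, 81.1, 44.4, 51.4 and 89.3 CPM in estrus and 32.8, 42.6, 20.3, 33.4 and 32.1 CPM in diestrus (log2 fold change -1.10 ± 0.26, edgeR adjusted p = 0.0473). Its stages did not overlap in ctrl mice, as for 3.66% of all genes. It was the only gene of that list called by edgeR in any of the 6 main tests, 1 of 19 tested there (1.36% of all genes called). With 1 mouse left out at a time the call was kept only without ctrl replicate 3 in estrus or ctrl replicate 2 in diestrus (edgeR adjusted p of 0.0468 to 0.135 over 10 fits). It was also lost with RLE size factors (edgeR adjusted p = 0.0507), with the mean count filter (0.0518) and with all 20 mice in 1 fit (0.0836). Atf5, itself a factor of the stress response, and the mTORC1 inhibitor Ddit4 had the lowest unadjusted p of that list over the 6 tests, below that of Psat1. For Atf5 that test was not the 1 between the lines in estrus. There their log2 fold changes were 0.99 ± 0.29 and -1.02 ± 0.25, which edgeR did not call (adjusted p of 0.142 and 0.0606). With no filter edgeR called both there (adjusted p of 0.0471 and 0.00263). It also called Ddit4 without FL1 replicate 2 or 5 in estrus (adjusted p of 0.0489 and 0.0296). DESeq2 called Ddit4 there (adjusted p = 0.00724), Psat1 between the stages in ctrl mice, and Atf5 and Sesn2 between the stages in FL1 mice.

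The 34 genes by which mTORC1 senses amino acids were all tested in each comparison and edgeR called 0 of them. In each test 1 to 4 had an unadjusted p under 0.05 (4.75% to 11.8% of all genes), with medians of -0.01 to 0.09. DESeq2 called 0 to 2 per test (0.00383% to 3.42% of all genes). Between the lines over both stages these were Fnip1 and Sesn1 (2.68% of all genes). Castor2, a paralog of the arginine sensor, and Sesn2, a leucine sensor, had the lowest p. Castor2 had 13.1 to 17.2 CPM in estrus and 26.4 to 39.3 CPM in diestrus in ctrl mice, and 8.24 to 17.6 CPM and 19.8 to 35.5 CPM in FL1 mice, so that the stages did not overlap in either line (edgeR adjusted p of 0.0511 and 0.158, DESeq2 adjusted p of 0.000450 and 0.0225). Sesn2 had a log2 fold change of 1.30 ± 0.36 between the stages in FL1 mice (edgeR adjusted p = 0.157, DESeq2 adjusted p = 0.0154). Of amino acid transporters of other families, 0 of 13 tested were called by edgeR or DESeq2 over both stages and 1 had an unadjusted p under 0.05 (11.0% of all genes). The lowest p belonged to Slc25a38, the mitochondrial glycine carrier, with -0.94 on the log2 scale between the lines in estrus (edgeR adjusted p = 0.168, DESeq2 adjusted p = 0.0425), and to Slc15a4, with an interaction of 0.93 (edgeR adjusted p = 0.982).

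Among 18 enzymes of glutamine, glutamate, arginine and branched-chain amino acids, Glul, the glutamine synthetase, was the only one called by edgeR, of 17 tested between the stages in FL1 mice (0.221% of all genes called). In FL1 mice it was at 279.7, 1084, 322, 347 and 165 CPM in estrus and 173, 93.8, 46.5, 84.7 and 88.3 CPM in diestrus, with a log2 fold change of -2.18 ± 0.43 (edgeR adjusted p = 0.0473). In ctrl mice it had 57.8, 192, 154, 169 and 148 CPM in estrus and 43.7, 96.2, 139, 132 and 133 CPM in diestrus. The stages overlapped in both lines, in FL1 mice through 1 mouse of each stage. The call was kept in 3 of 10 fits with 1 mouse left out, those without FL1 replicate 4 or 5 in estrus or FL1 replicate 1 in diestrus, and was lost in the others (highest edgeR adjusted p = 0.142). It was also lost with the replicate number as a block (log2 fold change -1.99, edgeR adjusted p = 0.0637) and with robust estimation (edgeR adjusted p = 0.128). Without FL1 replicate 2 in estrus, the mouse at 1084 CPM, the log2 fold change of Glul was -1.53 (edgeR adjusted p = 0.0667). Ass1, an enzyme of arginine synthesis, had a log2 fold change of -2.07 ± 0.71 between the lines over both stages (edgeR adjusted p = 0.185) at levels of 0 to 56.6 CPM.

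Of 7 genes of taurine and cysteine metabolism, which supplies the taurine that Slc6a6 carries, Cbs, the first enzyme from homocysteine to cysteine, was the only one called by edgeR (1.21% of all genes over both stages). Over both stages it was lower in FL1 mice by a log2 fold change of -0.83 ± 0.21 (edgeR adjusted p = 0.0392), with 42.4, 45.3, 24.0, 24.1 and 37.9 CPM in ctrl and 13.8, 21.3, 10.1, 16.7 and 25.3 CPM in FL1 mice in estrus. In diestrus it had 71.0, 60.5, 37.2, 52.5 and 35.0 CPM and 34.0, 26.4, 24.1, 41.3 and 34.4 CPM. The lines overlapped in both stages. The call was kept in 8 of 20 fits with 1 mouse left out and lost in 12 (edgeR adjusted p of 0.0277 to 0.0803), and was kept without ctrl replicates 3 or 4 and FL1 replicate 5 in estrus and ctrl replicates 3 or 5 and FL1 replicates 1, 4 or 5 in diestrus. It was lost without both FL1 libraries of low correlation (log2 fold change -0.84, edgeR adjusted p = 0.0596) and without all 3 libraries of low correlation (-0.77, edgeR adjusted p = 0.104). Cdo1, which makes the precursor of taurine from cysteine, had log2 fold changes of 0.29 ± 0.47 in estrus and 0.11 ± 0.37 in diestrus between the lines, both outside the threshold.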

How the data were processed

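Trimmed reads were aligned by the authors to GRCm38 (Ensembl release 95) with STAR 2.6.0a, and the raw counts per gene of each mouse were deposited. The strand setting of the counting is not given in the sources used here. Reads counted on genes (48.9% to 58.4% of those in the files) gave the library sizes, and unassigned reads were left out. Symbols and positions come from GENCODE M21 (55227 of 55487 identifiers matched), promoters from RefSeq GRCm38.p6 (21 of the 34 tested members).

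Counts were tested in R 4.3.3 with edgeR 4.0.16 (TMM, filterByExpr with 10 counts per library and 15 in total as minimum, quasi-likelihood F test, Benjamini-Hochberg over all genes, threshold 0.05), on the 10 mice of a stage or line, or on all 20 with stage as a term or with the interaction. P-values measure the spread between mice. Alternatives were DESeq2 1.42.0, RLE size factors, no filter, a mean count filter, robust estimation, 1 fit of all mice, a replicate block and each mouse left out in turn. Leaving out the pair of FL1 libraries of lowest correlation, or these and ctrl replicate 1 in diestrus, was added after seeing the data. Scripts were tested on simulated data. No pair of libraries of a group agreed within sampling noise.

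Copies of transcript ends (500 bases, 90% identity over 100 bases) were searched with BLAST 2.17.0, and for Slc7a8, Slc1a5, Slc38a2, Slc38a3, Slc38a5, Slc38a10 and Slc7a5 none was found. Of the 9 transcripts of Slc3a2, 7 of Slc38a1 and 11 of Slc6a6, 1 each shares its end with other genes. These were 493 genes for Slc3a2, 4 for Slc38a1 and 1 for Slc6a6. For Slc7a2 it was 3 of 5 transcripts, with 189 genes. How this bears on the counts was not tested.

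Members, lists and tests were chosen with earlier results of these data known. Values per mouse are given for members called in any test, the 8 with the highest mean, the 2 with the lowest p in each test, Slc7a8 and Slc6a6. Of other lists, genes called by edgeR and the 2 with the lowest edgeR p are named. Genes outside this rule, such as Slc7a2 and Slc36a2, were named with their values known.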

Additional observations from a re-analysis of the deposited data

Results flagged for a closer look

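Among 40 sets of 5 values checked, 3 held a mouse whose gap to the nearest other, divided by the range of its group, was above Dixon's critical value of 0.71. Chance alone gives about 1 in 20. Slc1a5 in ctrl mice in estrus had its highest value in replicate 2, with 108.7 CPM against 49.8 CPM in the next mouse (ratio 0.787). In FL1 mice in estrus Slc1a5 was highest in replicate 4, with 42.5 CPM against 29.3 CPM (ratio 0.746). Slc38a10 in FL1 mice in estrus was highest in replicate 5, with 166 CPM against 129.6 CPM (ratio 0.766). The call of Slc1a5 over both stages was lost without the first of these mice and kept without the second.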

How the results depend on the processing

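Slc7a8 in diestrus and Slc7a8 and Slc6a6 over both stages were called under every alternative run, each mouse left out included. In estrus the members called rose from 0 to 2 with DESeq2 and with no filter, and to 1 with all mice in 1 fit. Between the stages they rose from 0 to 2 in ctrl mice with DESeq2 and with no filter, and in FL1 mice from 0 to 4 with DESeq2, 2 with no filter, 1 with the mean count filter, 2 with all mice in 1 fit and 1 with both FL1 libraries of low correlation left out. With 1 mouse left out, the members called ranged from 0 to 2 in estrus, 1 to 1 in diestrus, 0 to 1 between the stages in each line, 2 to 4 over both stages and 0 to 0 for the interaction. Over all genes DESeq2 called 425, 118, 526, 265, 438 and 1 in the 6 tests (estrus, diestrus, stages in ctrl, stages in FL1, both stages, interaction) and the fits with no filter 373, 55 higher and 52 lower, 348, 299, 319 and 6, against 100, 32, 175, 29, 181 and 0. With 1 mouse left out these counts ranged over 66 to 130, 21 to 32, 77 to 176, 13 to 178 (178 without FL1 replicate 1 in diestrus), 139 to 209 and 0 to 0. All mice in 1 fit gave 65 and leaving out both libraries 217 calls between the stages in FL1 mice. The causes were not tested.

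The replicate numbers mark different mice, and mice of the same number in different groups did not deviate together (r from -0.179 to 0.119 in 30 pairs, median -0.016). With the replicate number as a block, Slc1a5 lost its call over both stages (edgeR adjusted p = 0.0504) and Glul that between the stages in FL1 mice (edgeR adjusted p = 0.0637), no other gene named here lost one, and all genes called fell to 58 in estrus and 13 in diestrus. Under this block the differences of Slc7a5 in estrus (-0.0641) and Slc38a3 in diestrus (-0.0267) changed sign. Without both FL1 libraries of low correlation, the difference of Slc38a10 over both stages (0.0686) did so, and without all 3 libraries of low correlation those of Slc38a2 in diestrus (0.0438), Slc38a5 (-0.0720) and Slc38a10 (0.00663) over both stages and the interactions of Slc3a2 (0.0572) and Slc7a5 (-0.0172). Leaving out all 3 kept 1 member called in diestrus, gave 4 over both stages and 0 for the interaction.

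Small log2 fold changes that crossed 0 with 1 mouse left out were those between the lines of Slc7a5 in estrus (-0.103 to 0.448), Slc38a1 in diestrus (-0.0426 to 0.151), Slc38a3 in diestrus (-0.380 to 0.287), Cdo1 in diestrus (-0.242 to 0.324), Slc38a5 over both stages (-0.0590 to 0.147) and Slc38a10 over both stages (-0.136 to 0.0312). Between the stages they were those of Slc3a2 (-0.138 to 0.0352) and Slc7a5 (-0.245 to 0.126) in ctrl mice and of Slc38a1 in FL1 mice (-0.0242 to 0.199), and for the interaction those of Slc38a2 (-0.0341 to 0.317) and Slc6a6 (-0.283 to 0.172). Low depth limits the genes under 10 CPM, whose standard errors reached 1 or more on the log2 scale.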
